A study of Mus musculus with 8 samples.

Results

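The Wnt feedback and beta-catenin target genes described here are Axin2, Lgr5, Tbx3, Nkd1, Rnf43, Znrf3, Notum, Sp5, Lef1 and Tcf7, which many tissues transcribe when Wnt signalling is active. They were chosen by name from the pathway, with earlier results of these data known. Each is represented by the array probe that carries its symbol alone, and where a gene has several such probes, by the one with the highest mean over the arrays. Of the 10 genes, 9 had a probe under this rule, 1 probe each, out of 19938 genes measured. The expression of Tcf7 was not analysed here. The 8 samples are 4 tumors, labelled hepatocellular carcinoma, and 4 pieces of adjacent normal liver, 1 of each kind from every one of 4 mice (M24, M48, M50, M60). All 4 mice were male C57BL/6J animals. Each had received a vector derived from adeno-associated virus (AAV) when 2 to 3 months old, and its liver was taken 18 months later. The adjacent liver therefore comes from injected, tumor-bearing animals, and the labels do not name what the vector carried. Each sample was hybridised to 1 array, and values are the deposited signals, read as log2 and treated as already normalised.

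Wnt proteins bind Frizzled and Lrp5 or Lrp6 receptors, which stops the destruction of beta-catenin, so that beta-catenin enters the nucleus and activates genes through DNA-binding proteins of the TCF/LEF family. Several of the activated genes encode brakes on the same pathway, which is why they are called feedback genes. In the healthy liver this signalling is strongest in hepatocytes around the central vein, where endothelial cells supply Wnt2, Wnt9b and the amplifier Rspo3, and it maintains the pericentral program with glutamine synthetase. Wnt activation in liver tumors is known in mouse and human.

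The samples carried a hepatocyte profile in both tissues: the 9 hepatocyte markers measured had means of at least 11.09 (Hnf4a) on arrays whose highest value was 14.49. Of the 19938 genes, the 40% with the lowest mean over all 8 arrays, below 4.60, were left out of the test, which left 11963 genes. Of these, 15.7% were lower in tumors and 16.3% higher, by limma with the mouse as a block and Benjamini-Hochberg adjustment over all tested genes at a threshold of 0.05. A difference is the tumor value minus the adjacent value on the log2 scale, averaged over 4 pairs, SE is its standard error in the fit, and a gene is said to have fallen or risen where it passed that threshold. Hybridisation batches were not tested. No liver from an uninjected animal was analysed here.

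Of the 9 measured genes, 8 had all 4 tumor values below all 4 adjacent values, and Lef1 was the exception. Over all 19938 genes, 10.4% showed this separation downward. None of the 9 (0) had all tumors above all adjacent pieces, against 10.2% of all genes. In the fit, 7 of the 9 genes were tested and 7 fell, against 15.7% of all tested genes in that direction, and 15.6% of all tested genes had all 4 tumors below all 4 adjacent pieces. Sp5 and Lef1 lay below the filter and were not tested there. Since the filter mean was taken across tumor and adjacent arrays, a gene that is low in tumors was tested where its adjacent level was high enough, and the count over tested genes is a description. The median difference of the 9 genes was -0.72, and that of all tested genes was 0.0008. The falls ran from 0.38 for Nkd1 to 1.93 for Tbx3, and 3 genes, Tbx3, Lgr5 and Notum, fell by more than 1.5.

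**Figure D1:**
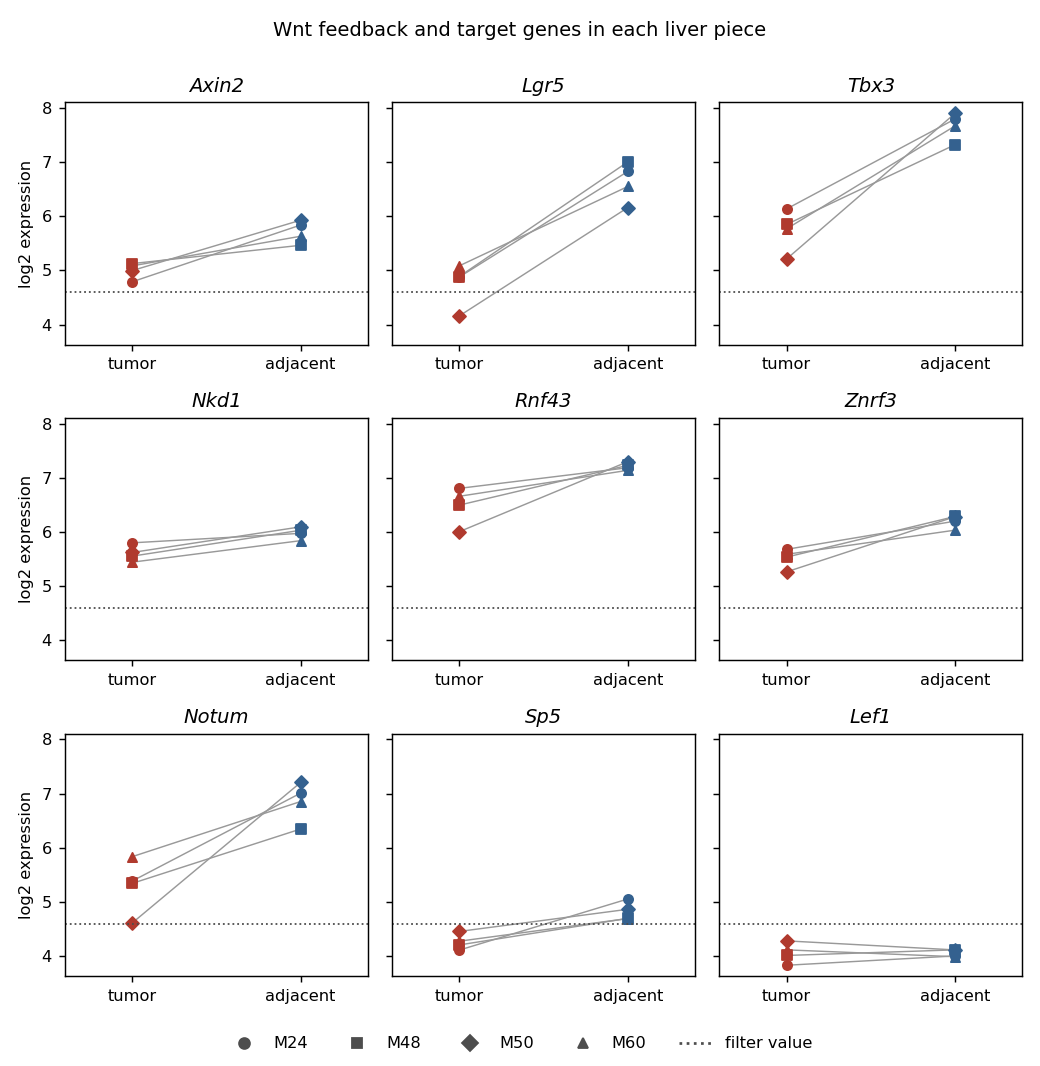
Log2 expression of the 9 measured genes (vertical axis) in tumor (red, left) and adjacent liver (blue, right), with a line joining the 2 pieces of each mouse and a symbol for each mouse. The dotted line is the filter value of 4.60. In every mouse the tumor lies below the adjacent liver, except for Lef1 in M50 and M60, and Sp5 and Lef1 lie under the dotted line in all 4 tumors.

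Lgr5 encodes a receptor for R-spondins, secreted proteins that amplify Wnt signals, and it is itself a Wnt target that marks pericentral hepatocytes. Its log2 level in the tumors of M24, M48, M50 and M60 was 4.88, 4.89, 4.16 and 5.09, against 6.83, 7.003, 6.16 and 6.55 in their adjacent liver. The groups did not overlap, and M50 was the lowest in both tissues. The mean was 4.75 ± 0.41 in tumors and 6.63 ± 0.37 in adjacent liver (SD, n = 4 each), a fall of 1.88 (SE 0.13, limma adjusted p = 0.000339) or 3.68-fold. Of the tested genes, 0.777% had a difference as low or lower. The tumor value of M50 lies below the filter value of 4.60.

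The other R-spondin receptors were measured on probes of their own. Lgr4, the broadly expressed relative, averaged 8.61 ± 0.06 in tumors and 8.83 ± 0.20 in adjacent liver, a difference of -0.23 that did not pass (adjusted p = 0.121, 95% interval -0.46 to 0.0033). Lgr6, which marks stem cells of the skin, differed by -0.02 (adjusted p = 0.893, 95% interval -0.25 to 0.21). The Lgr5 difference lay below that of Lgr4 in 4 of 4 mice, by 0.99 to 2.03 log2 units, and below that of Lgr6 in 4 of 4 mice. With 4 pairs the two-sided exact sign-flip test gives p = 0.125 for each, the smallest value it allows, and 0.208 after adjustment over the 5 pairs of genes compared in this way.

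Rnf43 and Znrf3 encode membrane ubiquitin ligases that remove Frizzled receptors from the cell surface and so dampen the Wnt response, and R-spondins act by inhibiting them. Rnf43 stood at 6.81, 6.50, 6.01 and 6.66 in the tumors of M24, M48, M50 and M60, against 7.19, 7.23, 7.30 and 7.14 in their adjacent liver. The adjacent samples were close together and the tumors were spread, with M50 lowest. The fall was 0.72 (SE 0.16, adjusted p = 0.0156). Znrf3 stood at 5.68, 5.54, 5.26 and 5.59 in the same tumors, against 6.20, 6.29, 6.28 and 6.04 in adjacent liver, again with no overlap and with M50 lowest among tumors. It fell by 0.68 (SE 0.12, adjusted p = 0.00716). The falls of the 2 ligases differed by -0.04 on average, between -0.27 and 0.14 in single mice (exact sign-flip p = 0.75, adjusted p = 0.75).

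Notum encodes a secreted enzyme that removes the lipid from Wnt proteins and inactivates them. The tumors, in the order M24, M48, M50 and M60, had levels of 5.39, 5.34, 4.61 and 5.84, against 7.01, 6.35, 7.21 and 6.86 in the matching adjacent liver. All tumors were below all adjacent pieces. M50 had both the lowest tumor value and the highest adjacent value, so that its difference, -2.59, was the largest of the 4, and the smallest was -1.003 in M48. Notum fell by 1.56 (SE 0.27, adjusted p = 0.00622), or 2.95-fold, and by 1.22 when M50 was left out (adjusted p = 0.00799).

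Axin2 encodes a scaffold of the complex that destroys beta-catenin and is widely used as a readout of Wnt activity. The tumors of M24, M48, M50 and M60 had 4.79, 5.13, 4.997 and 5.08, against 5.84, 5.46, 5.93 and 5.63 in adjacent liver. The 4 tumors lay within a narrow range, and the adjacent sample of M48 was the lowest of its group. The fall was 0.72 (SE 0.14, adjusted p = 0.0101), between 0.34 in M48 and 1.05 in M24. Axin1, the relative that is made constitutively, differed by -0.22 and did not pass (adjusted p = 0.111, unadjusted 95% interval -0.44 to -0.0043). Axin2 was the lower of the pair in difference in 4 of 4 mice, by 0.18 to 0.96 (exact sign-flip p = 0.125, adjusted 0.208).

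Nkd1 encodes a Dishevelled-binding protein that limits Wnt signalling. In tumors of M24, M48, M50 and M60 it measured 5.80, 5.55, 5.62 and 5.44, against 5.98, 6.03, 6.10 and 5.84 in adjacent liver. The highest tumor, M24, fell just short of the lowest adjacent piece, M60. The fall of 0.38 (SE 0.10, adjusted p = 0.026) was the smallest among the tested members, and 14.51% of all tested genes had a difference as low or lower. Its call was lost when 1 mouse was left out, with adjusted p = 0.0747 without M48, 0.0933 without M50 and 0.091 without M60. Nkd2, its relative, lay below the filter and differed by -0.15. The Nkd1 difference lay below that of Nkd2 on average (mean -0.23, range -0.62 to 0.16), with M24 going the other way (exact sign-flip p = 0.25, adjusted p = 0.312).

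Tbx3 encodes a T-box repressor found in pericentral hepatocytes and in liver progenitors. It stood at 6.13, 5.85, 5.21 and 5.77 in the tumors of M24, M48, M50 and M60, against 7.79, 7.32, 7.90 and 7.67 in their adjacent liver. The gap between the groups was wider than the spread within either of them. Tbx3 fell by 1.93 (SE 0.20, adjusted p = 0.00113), or 3.81-fold, with differences from -1.47 in M48 to -2.69 in M50. Of the tested genes, 0.711% had a difference as low or lower.

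Sp5 encodes a zinc-finger transcription factor that is a direct target of TCF/LEF proteins in mouse embryos and stem cells. Its values in the tumors of M24, M48, M50 and M60 were 4.11, 4.21, 4.46 and 4.28, against 5.06, 4.70, 4.87 and 4.70 in adjacent liver. All 4 tumors were below the filter value of 4.60 and all 4 adjacent pieces above it, and the mean over the 8 arrays was 4.55, just under that limit. Axin2, with a mean of 5.36, was the lowest gene to pass. With no filter on low values, Sp5 differed by -0.565 (SE 0.11, adjusted p = 0.0147, 95% interval -0.84 to -0.29), in a fit that called 8.97% of 19938 genes lower.

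The TCF/LEF proteins recognise a short DNA core, and the upstream windows in RefSeq (build GRCm38.p6) were searched for it as CTTTGA or CTTTGT on both strands, each match counted separately and neighbouring matches allowed. A window is the 250 bases before an annotated start. The table held windows for 6 of the 10 genes, with 11 starts in all: Axin2, Nkd1, Rnf43, Sp5, Lef1 and Tcf7. Sp5 had 4 matches, at 221, 212, 204 and 104 bases before its start, and the fourth annotated start of Lef1 had 3, at 180, 146 and 120 bases. The other 9 windows held no match in these letters. Of all 32851 windows in the table, 27.6% held at least 1 match, 0.776% at least 3 and 0.0944% at least 4. These Sp5 and Lef1 windows are shown because they alone held matches, and capitals mark the matches on either strand. The windows of Axin2, Nkd1 and Rnf43, genes that fell, held none. The Sp5 window is chr2:70474673-70474922 on the plus strand, and that of Lef1 is chr3:131156044-131156293 on the plus strand.
Sp5: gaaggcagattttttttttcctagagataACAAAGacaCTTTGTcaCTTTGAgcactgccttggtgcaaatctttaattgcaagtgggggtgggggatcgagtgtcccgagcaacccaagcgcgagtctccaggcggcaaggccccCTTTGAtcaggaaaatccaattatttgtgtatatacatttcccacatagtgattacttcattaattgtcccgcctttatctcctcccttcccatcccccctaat
Lef1: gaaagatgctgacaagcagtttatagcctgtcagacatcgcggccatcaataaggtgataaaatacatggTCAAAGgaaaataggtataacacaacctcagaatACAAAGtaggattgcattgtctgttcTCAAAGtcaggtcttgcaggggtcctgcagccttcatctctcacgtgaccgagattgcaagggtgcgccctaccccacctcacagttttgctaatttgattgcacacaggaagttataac
In Sp5, 3 of the 4 matches stand close together at the far end of the window and the other stands alone. A match is a description of the letters and does not show that a protein binds there in liver.

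**Figure D2:**
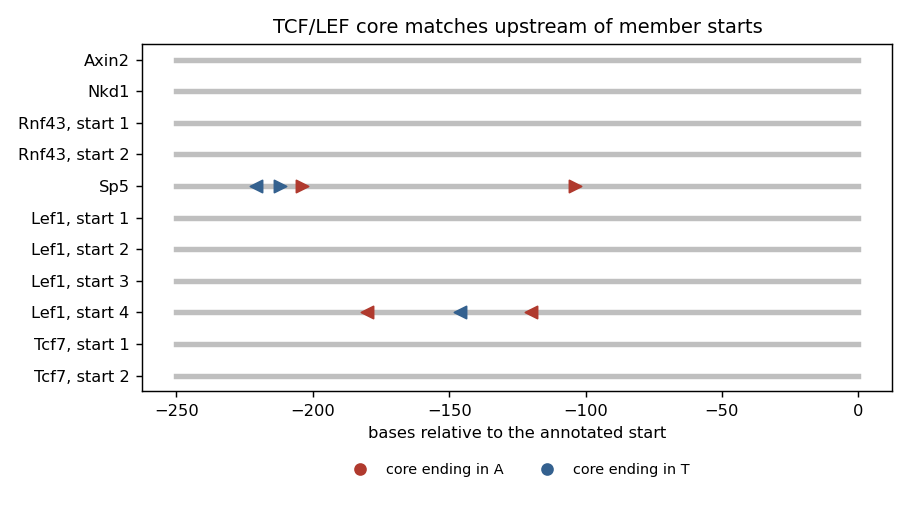
Positions of the TCF/LEF core in the 250 bases before each annotated start of the 6 genes with a window (horizontal axis, bases relative to the start). Triangles point right for a match on the gene's strand and left for the opposite strand, red for the core ending in A and blue for the core ending in T; matches are seen for Sp5 (4) and for the fourth start of Lef1 (3).

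Lef1 and Tcf7 encode members of the TCF/LEF family itself, and both are known from T lymphocytes as well as from Wnt-activated epithelia. Lef1 stood at 3.83, 4.01, 4.28 and 4.12 in the tumors of M24, M48, M50 and M60, against 4.01, 4.12, 4.12 and 3.99 in adjacent liver. The 4 adjacent values lay inside the range of the tumors, and all 8 values were below the filter value. The mean difference was 0.0044, with a 95% interval from -0.21 to 0.22 in the fit with no filter (adjusted p = 0.983). Detection calls were not used here, and whether the probe was above background was not tested. Of the other family members, Tcf7l2, which is the main one in hepatocytes, averaged 7.22 ± 0.18 in tumors and 7.59 ± 0.13 in adjacent liver, and its difference of -0.37 did not pass (adjusted p = 0.0508). It passed with no replicate block (adjusted p = 0.0341) and with the array medians centred (adjusted p = 0.0265). Tcf7l1, which acts mostly as a repressor, differed by 0.21 and did not pass (adjusted p = 0.181). T cell markers, measured beside Lef1, gave 0 of 7 tested genes past the limma threshold and 2 with an unadjusted p under 0.05, and their summed linear signal ran from 330 to 814 in tumors and from 283 to 340 in adjacent liver.

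**Figure D3:**
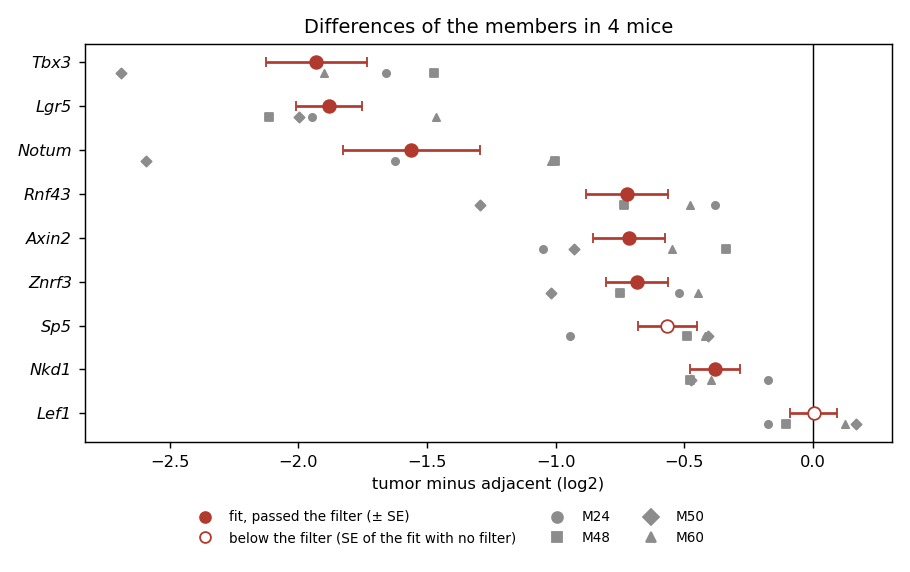
Tumor minus adjacent difference of each measured gene (horizontal axis, log2), as the fitted mean with its SE (red) and as the difference in each of the 4 mice (grey symbols). Open circles mark Sp5 and Lef1, which were below the filter and carry the SE of the fit with no filter. Tbx3, Lgr5 and Notum lie farthest left and Lef1 lies at 0.

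The mice did not rank the same way for every gene. Over the 9 genes, the median difference of M24, M48, M50 and M60 was -0.94, -0.73, -1.02 and -0.48, while the medians over all tested genes were between -0.02 and 0.01. M50 had the largest fall of 4 genes, Tbx3, Rnf43, Znrf3 and Notum. M24 had the largest decrease of Axin2 and Sp5 but the smallest fall of Nkd1 and Rnf43. With 1 pair per mouse, differences between mice have no replicate and were not tested.

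The genes closest to Axin2 in pattern, among 11956 tested genes outside the set, were named by Pearson correlation over the 8 arrays as a description. They were Tti1 (0.995), 1700030K09Rik (0.987), 9130409I23Rik (0.984), Auh (0.983) and Pdxk-ps (0.978). The arrays fall into 2 tissues that differ widely, and 273 genes had a correlation above 0.9, so each of these correlations contains that difference.

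Other components of the pathway were then described from lists chosen by function. The 7 lists of ligands, secretion factors, R-spondins and receptors, inhibitors, cytoplasmic and nuclear components had 70 tested genes, of which 10 fell and 7 rose. That is 24.3%, against 31.9% of all tested genes, and their differences ran from -0.98 to 0.93. By limma, 0 of 11 tested Wnt ligands fell and 0 rose, and 3 had an unadjusted p under 0.05. The count that fell was 1 under quantile normalization, with array medians centred, without M48 and without M50. The largest difference among the tested ligands, named after its value was seen, was that of Wnt5b, at -0.56 with all 4 tumors below all 4 adjacent pieces (adjusted p = 0.0669). Wnt2, from central vein endothelium, averaged 4.45 ± 0.21 in tumors and 4.88 ± 0.29 in adjacent liver (difference -0.43, adjusted p = 0.104). It was lower in M24, M50 and M60 but higher by 0.23 in the tumor of M48, and without M48 it passed at -0.65 (adjusted p = 0.00943). Wnt9b, also from central vein endothelium, differed by 0.14 with all 4 tumors above all 4 adjacent pieces, but did not pass (adjusted p = 0.256).

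The 2 genes needed for Wnt release moved in opposite directions. Porcn, the enzyme that attaches the lipid to Wnt proteins, averaged 4.95 ± 0.15 in tumors and 5.72 ± 0.17 in adjacent liver and fell by 0.77 (adjusted p = 0.00237). Wls, the carrier that takes Wnts to the surface, rose by 0.74 (adjusted p = 0.0281), though its difference was only 0.01 in M50. The Wls call was lost with no replicate block (adjusted p = 0.0562), without M24 (0.107), without M48 (0.0826) and without M60 (0.082). Rspo3 was lower by 0.52 (adjusted p = 0.0421), with no overlap between groups, but this call too was lost without M24 (0.0688), without M48 (0.117) and without M50 (0.137), with no filter (0.0536) and with the lowest 20% left out (0.0505).

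Of 12 tested receptor genes 2 rose and 3 fell, against 16.3% and 15.7% of all tested genes. Fzd7, a Frizzled receptor, averaged 7.08 ± 0.17 in tumors and 8.06 ± 0.33 in adjacent liver and fell by 0.98 (SE 0.15, adjusted p = 0.00393), whereas Fzd5 rose by 0.49 (adjusted p = 0.0246). The co-receptor Lrp6 fell by 0.34 (adjusted p = 0.0184), and the Wnt-binding kinase-like receptor Ryk fell by 0.42 (adjusted p = 0.0322). The other gene that rose was the co-receptor Lrp5, at 0.44 (adjusted p = 0.0444), and its call held in 3 of 11 alternatives. With 1 mouse left out, Fzd5 differed by 0.49 without M48 (adjusted p = 0.0575), by 0.54 without M50 (0.0527) and by 0.36 without M60 (0.0829), and its call was lost each time. Ryk was lost at -0.45 without M48 (adjusted p = 0.0523), at -0.30 without M50 (0.0903) and at -0.42 without M60 (0.103). Lrp6 was lost at -0.32 without M50 (adjusted p = 0.0637) and at -0.33 without M60 (0.0849). Without M50, and likewise without M60, 0 receptor genes were called higher and 1 lower. Among secreted and membrane inhibitors 1 of 7 tested genes rose and 0 fell. It was Frzb, a secreted Frizzled-like protein that binds Wnts, at 6.27 ± 0.29 in tumors and 5.34 ± 0.45 in adjacent liver, a rise of 0.93 (SE 0.16, adjusted p = 0.00654).

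In the cytoplasm and nucleus the changes were small. Beta-catenin (Ctnnb1) averaged 10.35 ± 0.21 in tumors and 9.88 ± 0.07 in adjacent liver, a rise of 0.47 (SE 0.10, adjusted p = 0.0133) in 4 of 4 mice, and its call was lost without M60 (adjusted p = 0.0644). The RNA level does not measure how much of the protein is stabilised. For the cytoplasmic and nuclear counts that follow, 16.3% of all tested genes rose and 15.7% fell. Of 19 tested cytoplasmic genes 3 rose and 4 fell. The casein kinases Csnk1e and Csnk1a1 rose by 0.51 and 0.34, the second of them lost without M24 (adjusted p = 0.0519) or M60 (0.0725). Dact2, a Dishevelled-binding regulator, fell by 0.57 and was lost without M24 (adjusted p = 0.0704). The other genes that fell were Apc and Amer1, of the destruction complex and its partners, and the kinase Gsk3a, at -0.37, -0.39 and -0.38. The Apc call held in 8 of 11 alternatives and those of Amer1 and Gsk3a in 5 of 11 each. The count of cytoplasmic genes that fell was 2 without M24, 1 without M48, without M50 or without M60, and 2 with no filter or with the lowest 20% left out. With no replicate block or with array medians centred, 5 cytoplasmic genes fell. The count that rose was 2 without M24, 4 without M50 and 1 without M60. Of 15 tested nuclear factors 0 rose and 1 fell, the corepressor Tle5 at -0.31 (adjusted p = 0.0278), which was lost without M48 (0.0652), M50 (0.088) or M60 (0.123). The count of nuclear factors that fell was 4 with no replicate block. It was 2 under quantile normalization, with array medians centred or without M24, and 0 without M48, M50 or M60.

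**Figure D4:**
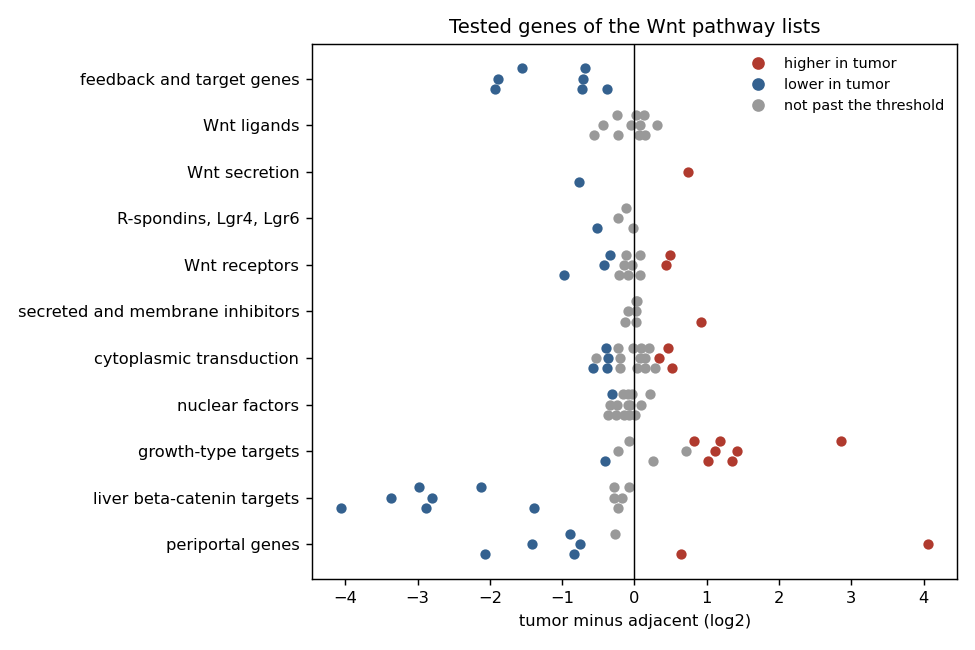
Tumor minus adjacent difference (horizontal axis, log2) of every tested gene of the Wnt lists, 1 row per list, red where the gene rose, blue where it fell and grey where it did not pass. The feedback and target genes and most liver beta-catenin targets lie left of 0, the pathway components cluster near 0, and most growth-type targets lie right of 0.

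Genes known as beta-catenin targets elsewhere did not share one direction. For the counts that follow, 16.3% of all tested genes rose and 15.7% fell. Of 12 tested targets linked to growth, 7 rose and 1 fell, with a median difference of 0.92. Cyclin D1 (Ccnd1) averaged 9.98 ± 0.19 in tumors and 7.12 ± 0.42 in adjacent liver and rose by 2.86 (SE 0.20), the transcription factor Sox9 by 1.36, the growth factor Bmp4 by 1.18 and the surface receptor Cd44 by 1.015, each with an adjusted p of at most 0.00257. These genes also respond to other signals. Of 12 liver targets, 7 fell and 0 rose, with a median of -1.76. The glutamate transporter Slc1a2 stood at 5.93 ± 0.72 in tumors and 9.99 ± 0.33 in adjacent liver (adjusted p = 0.00021). Glutamine synthetase (Glul) stood at 10.12 ± 0.38 in tumors and 12.24 ± 0.16 in adjacent liver (adjusted p = 0.000221). Ornithine aminotransferase (Oat) stood at 8.07 ± 0.96 in tumors and 11.05 ± 0.44 in adjacent liver (adjusted p = 0.000444). Cyp2e1, a drug-metabolising enzyme, fell by 2.80 (adjusted p = 0.00577). Of 8 tested periportal genes, which occupy the opposite end of the lobule, 5 fell and 2 rose, among them Pck1 at -1.42 and Asl at -0.75, against Hsd17b13 at 0.65 and Cdh1 at 4.06.

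Markers of other cells were measured beside these genes, and their part in the results was not tested. Less RNA per cell and fewer cells of a type cannot be told apart in pieces of tissue. The marker counts stand beside 16.3% of all tested genes that rose and 15.7% that fell. Of 13 endothelial markers 8 rose and 0 fell, with a summed linear signal of 2793 to 3925 in tumors and 2188 to 2634 in adjacent liver. Of 11 stellate and myofibroblast markers 5 rose and 0 fell (4724 to 5696 in tumors, 2797 to 5799 in adjacent liver), and of 4 tested cholangiocyte markers 2 rose and 0 fell (163 to 431 in tumors, 123 to 197 in adjacent liver). Of 7 macrophage markers 1 rose and 2 fell (2073 to 5861 in tumors, 1421 to 6298 in adjacent liver), and 0 of 1 tested B cell markers passed by limma, with 0 at an unadjusted p under 0.05 (51 to 100 in tumors, 48 to 86 in adjacent liver). Of the macrophage calls, the rise of Cd68 held in 6 of 11 alternatives, the fall of Clec4f in 7 and that of Marco in 10. Of the cholangiocyte calls, the rise of Krt19 held in 8 and that of Prom1 in 11. Of the 9 hepatocyte markers 1 rose and 3 fell, and their summed signal was 83714 to 93848 in tumors and 89355 to 96806 in adjacent liver, and that of the 9 Wnt feedback and target genes was 305 to 420 in tumors and 751 to 869 in adjacent liver. The hepatocyte markers that fell were Tat at -1.01, Hnf4a at -0.35 and Apoa2 at -0.32 (limma adjusted p = 0.00206, 0.0253 and 0.039). Apoa1 rose by 0.32 (adjusted p = 0.039). The call of Tat held in 11 of 11 alternatives, that of Hnf4a in 7, that of Apoa1 in 6 and that of Apoa2 in 5. Albumin (Alb) differed by 0.11 (adjusted p = 0.443).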

How the data were processed

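The values used are the log2 signals that the authors deposited for 28874 probes on 8 arrays (0 missing). Base 2 was inferred from their range, 1.918 to 14.49. Array medians lay between 4.888 and 5.006, so they were treated as already normalised. MAS5 appears, without version or role, per the submitters' processing notes. For background correction, summarization, normalization and build, the method is not given in the sources used here. Detection calls were not used. The number of arrays limits the precision.

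Gene symbols came from the platform annotation, in which 21789 probes had 1 symbol, 1621 had several and 5464 of the table's probes had no entry. The probe with the highest mean stood for each gene. Genes in the lowest 40% by mean were left out. The 2 tissues were set against each other with limma 3.58.1 in R 4.3.3 (lmFit, then eBayes with a trend), with the mouse as a block because both pieces came from 1 animal per the labels. Residual degrees of freedom were 3 and prior ones 3.643. All tests are two-sided, and the fit was checked on simulated data. There it recovered 43.9% of 1.5-fold changes, 77.6% of 2-fold changes and 93.6% of 4-fold changes, and 4.12% of its calls were false. The simulation changed only a small share of the genes, whereas 31.9% of tested genes were called in the data. Its rates therefore need not hold here. A gene that did not pass is not shown to be unchanged. Deviations from the group means correlated at 0.0986 to 0.421 between the 2 tissues of a mouse, and at -0.378 to 0.189 between mice. Pairs of related genes were compared by exact sign flips over 4 mice.

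The genes, the lists of pathway genes and cell markers, and the naming rule were chosen with earlier results of these data known. From each list the rule named up to 4 genes of smallest p that passed and moved one way in every mouse. To these it added relatives of the feedback genes, Ctnnb1, Wnt2, Wnt9b and Rspo3 whatever their values, and the 5 genes most like Axin2. Marker lists are given as counts. The single markers named, Hnf4a and Alb among them, and Lrp5, Apc, Amer1, Gsk3a and Wnt5b were named after their values were seen. Alternatives were no replicate block, other filters, eBayes without a trend, quantile normalization, centring on array medians, the mean of all probes of a gene, and leaving out each mouse.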

Additional observations from a re-analysis of the deposited data

How the results depend on the processing

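The 7 tested genes kept their direction under all 11 alternatives run, and Axin2, Lgr5, Tbx3, Rnf43, Znrf3 and Notum kept their call in all 11, with adjusted p of at most 0.0452 (Axin2 without M50). Nkd1 kept its call in 8 and lost it without M48, M50 or M60. With no replicate block, 7 genes fell, and 27 genes outside the set were called lower and 14 higher. That fit called 15% of all tested genes lower and 14.6% higher. With no filter, or with the lowest 20% left out, 8 of the 9 fell, Sp5 included, and Lef1 did not pass. Those fits called 8.97% and 11.7% of all their tested genes lower, in that order. Outside the set, 23 of 102 tested genes of the 10 lists were called lower and 16 higher. Of all tested genes, 15.7% were called lower and 16.3% higher. When 1 mouse was left out, the lower calls outside the set numbered 14 to 18, with 15 without M50 and 14 without M60. The higher calls outside the set then numbered 11 to 15. Over all tested genes, the count of lower calls was 1874, and 1173 without M50 and 1070 without M60. That of higher calls was 1945, and 1247 without M60. With 1 mouse left out, 8.94% to 14.4% of all tested genes were called lower and 10.4% to 14.7% higher. Fewer samples entered those fits. Centring on array medians moved the median difference of all tested genes to -0.06 and quantile normalization to -0.03. Low signals limit what can be said of Sp5, Lef1, Wnt2 and the Lgr5 value in the tumor of M50, since signal over background was not measured here.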
